A study of Mus musculus with 47 samples.

Results

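Collagens are the main structural proteins of the matrix around cells, and each is built from chains that wind into a triple helix. The genes of these chains were followed in luminal and basal cells of the mouse mammary gland. A gene was a member if its symbol was Col, a number, the letter a and a number. Of the 17078 genes in the deposited table, 42 met this rule. They were 11 fibrillar chains, 6 basement membrane chains of collagen IV, 6 beaded filament chains of collagen VI and 8 FACIT and related chains, which sit on the surface of fibrils. The other members were 2 multiplexin chains, 5 anchoring and transmembrane chains and 4 others. Another 2 annotated collagen genes, Col22a1 and Col26a1, were not analysed here.

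RNA-seq values of 46 libraries were used, 24 luminal and 22 basal, from FVB/N mice at 8 time points. The nulliparous mice were 10 weeks (W10) or 4 months (M4) old, and the pregnant mice were at day 3.5 (P3.5) or 14.5 (P14.5). Lactating mice were at day 3 (L3) or 10 (L10), and weaning was forced on day 10 of lactation. Involuting mice were taken 2 days (Id2) or 4 weeks (Iw4) after that. Glands of several mice were pooled for each sort. Cells that stained for blood cell markers, for the endothelial protein encoded by Pecam1 or with an antibody to the fibroblast receptor encoded by Pdgfra were gated out. Cells positive for CD24 were then split by CD29, an integrin, into a low (luminal) and a high (basal) gate. These gates were shifted slightly from sort to sort. The libraries held between 4398806 and 20023054 reads in the table. Each combination had 3 replicates, except that basal cells had 2 at P14.5 and 2 at L10. RNA was amplified in batches that mostly hold whole time points (W10 with Id2, L3 with L10 and P3.5 with P14.5). Time point and batch therefore cannot be told apart for most comparisons between time points.

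In this gland the basal cells, most of them myoepithelial, contract to eject milk and rest on a basement membrane, a thin sheet whose network is made of collagen IV. Luminal cells line the lumen and make the milk. Interstitial fibrils of collagens I, III and V lie in the stroma, where fibroblasts make most of them, and blood vessels have a basement membrane of their own. Collagen XVII and collagen VII belong to the junctions that fasten stratified epithelia to the matrix beneath.

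The labelled cell types were checked against marker genes. In the 19 basal libraries outside Id2, 10 basal markers summed to between 12846 and 79500 CPM (read counts scaled to the size of the library), with a median of 21326 CPM. In the 21 luminal libraries outside Id2 the same sum was between 101 and 2662 CPM, so these groups did not overlap. The Id2 basal libraries went against their label. Their basal marker sums were 1369, 17966 and 1110 CPM in replicates 2, 4 and 6, so only replicate 4 lay within the range of the other basal libraries. Acta2, which contractile cells of vessels also transcribe, was the most abundant of the 10 markers in each, at 537, 8399 and 515 CPM. Krt5, a keratin that defines basal cells, was at 4.68, 156 and 6.95 CPM in them, below the lowest other basal library (779 CPM). Trp63, the basal lineage regulator, was at 9.99, 26.6 and 3.39 CPM against at least 457 CPM in the other basal libraries. The Id2 libraries labelled basal thus had the defining basal markers at a small part of the level seen at any other time point, and they also differed from each other. Their basal marker sums were still above those of the Id2 luminal libraries (152, 297 and 206 CPM). Against these, 5 of 10 basal markers were called higher and 0 lower.

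Markers of other cell types were not alike in these 3 libraries. The 12 endothelial markers summed to 19325 CPM in replicate 2, with Vwf the most abundant and Pecam1 at 3205 CPM, and to 751 and 556 CPM in replicates 4 and 6. The 9 pericyte markers summed to 3389, 11934 and 2704 CPM, with Rgs5 the most abundant in each. The 10 fibroblast markers summed to 1479, 4603 and 20923 CPM, with Fbn1 the most abundant in each and Pdgfra at 51.5, 301 and 2002 CPM. In the other basal libraries the highest sums were 1745 CPM (endothelial), 17397 CPM (pericyte) and 3771 CPM (fibroblast). None of the markers in these 3 lists was at 0 in an Id2 basal library. Luminal marker sums stayed low in them, at 1308, 819 and 320 CPM against at least 5056 CPM in luminal libraries. Immune markers (7 of the 8 listed were in the table) summed to at most 99.7 CPM, Schwann cell markers (4 of 5) to at most 20.4 CPM and adipocyte markers (2 of 6) to at most 13.3 CPM in these 3 libraries. Milk protein genes summed to 56714, 51796 and 12644 CPM in them against 314 to 48882 CPM in the other basal libraries. In sorted bulk samples, more or fewer cells of a type and more or less RNA per cell cannot be told apart, and this holds for every level given here. The part of these other cell types in the collagen values was not tested.

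**Figure D1:**
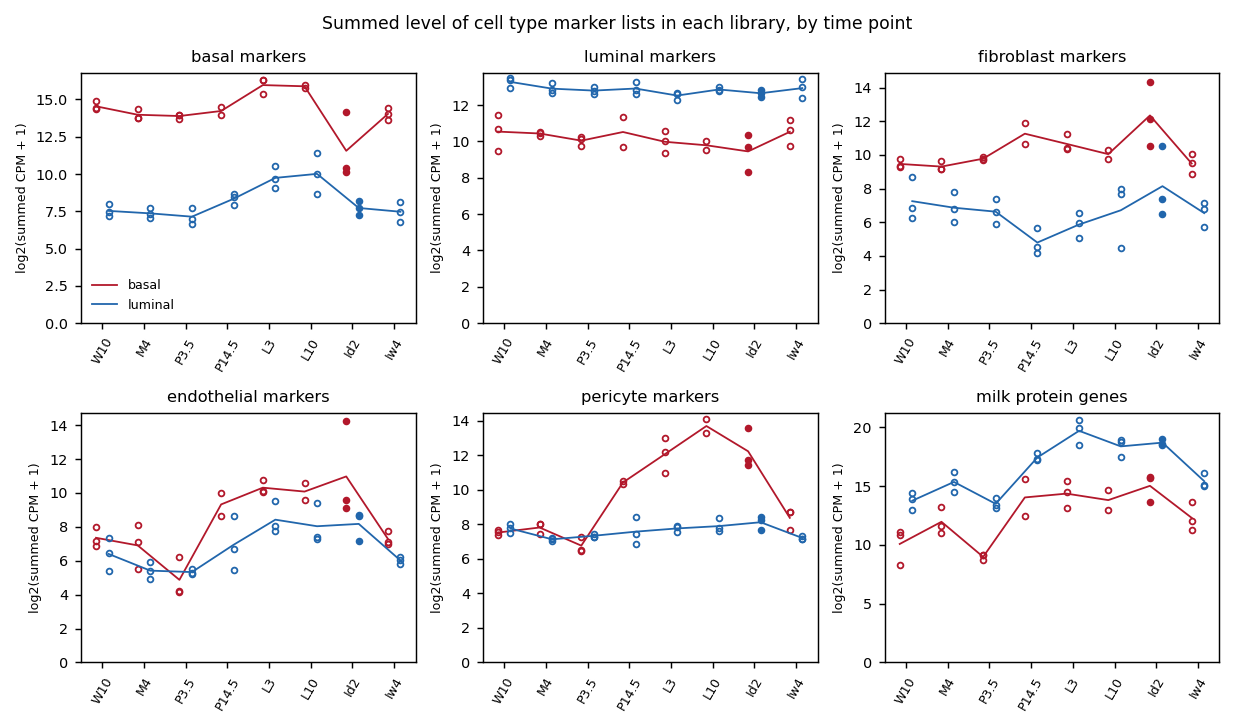
Summed level of 5 marker lists and of 6 milk protein genes in each library on a log2(CPM + 1) scale, by time point, for basal (red) and luminal (blue) libraries; each point is a library, filled at Id2, and lines join the means. The Id2 basal libraries have basal marker sums of 1369, 17966 and 1110 CPM, and 1 of the 3 has an endothelial sum of 19325 CPM.

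Several members lie side by side in the genome, and the paired collagen IV genes are known to start from shared promoter regions. In the annotation used for names, Col4a1 and Col4a2 start head to head with -22 bases between them, so that their first exons overlap. Col4a3 and Col4a4 are head to head with 71 bases between them, and Col4a5 and Col4a6 with 1308 bases between them. Col3a1 and Col5a2 lie tail to tail. Promoter sequences (the 250 bases before the annotated start, RefSeq, build GRCm38.p6) were found for 35 of the 42 members. They were searched on both strands for TATAAA, for CCAAT and for GGGCGG, a binding motif of Sp1, and the matches in the sequences shown do not overlap. GGGCGG was in 21 of the 35 genes and in 32.7% of 32851 promoters of the same length. CCAAT was in 13 of the 35 against 33.8%, and TATAAA in 5 of the 35 against 12.4%. These units are unlike. A member was counted if any of its promoters held the motif, while the percentages are of single promoters, so members with several promoters had more chances of a match. A match is only a description of the letters. The sequences below belong to a pair of interstitial chains that were high in the Id2 basal libraries and to a pair of epithelial chains that were low in them. They are written 5′ to 3′ on the strand of the gene, capitals mark the motifs on either strand, and bases in annotated exons were left out, so that those of Col1a2 and Col17a1 end 125 and 52 bases before the annotated start. That of Col1a2 lies on the plus strand at chr6:4505370-4505492, that of Col3a1 on the plus strand at chr1:45311288-45311537, that of Col17a1 on the minus strand at chr19:47692095-47692292 and that of Col4a6 on the minus strand at chrX:141474077-141474326. In the annotation used for names Col1a2 starts earlier, at chr6:4504814, so that its stretch lies inside the gene there.
Col1a2: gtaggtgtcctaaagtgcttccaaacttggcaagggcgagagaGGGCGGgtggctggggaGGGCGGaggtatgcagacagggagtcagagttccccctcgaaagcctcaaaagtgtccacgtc
Col3a1: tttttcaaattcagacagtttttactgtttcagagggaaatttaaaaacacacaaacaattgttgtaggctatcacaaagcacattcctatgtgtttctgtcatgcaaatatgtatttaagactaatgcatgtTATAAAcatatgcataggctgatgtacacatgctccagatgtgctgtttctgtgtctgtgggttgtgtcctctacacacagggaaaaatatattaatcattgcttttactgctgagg
Col17a1: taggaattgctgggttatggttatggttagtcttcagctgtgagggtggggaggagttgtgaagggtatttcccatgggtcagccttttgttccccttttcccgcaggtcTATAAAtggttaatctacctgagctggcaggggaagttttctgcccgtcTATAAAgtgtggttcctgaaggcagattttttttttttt
Col4a6: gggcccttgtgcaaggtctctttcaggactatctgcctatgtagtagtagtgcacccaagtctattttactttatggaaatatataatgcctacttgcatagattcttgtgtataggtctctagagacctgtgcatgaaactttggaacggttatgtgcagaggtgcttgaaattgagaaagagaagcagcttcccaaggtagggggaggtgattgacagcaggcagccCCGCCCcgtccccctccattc
In these stretches Col1a2 has 2 matches of GGGCGG and Col3a1 has 1 of TATAAA, while Col17a1 has 2 of TATAAA and Col4a6 has 1 of GGGCGG.

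Collagen RNA was mostly found in basal libraries. The 42 genes took between 0.409% and 1.93% of the reads in the 19 basal libraries outside Id2 (median 0.726%) and between 0.0236% and 0.174% in the 21 luminal libraries outside Id2 (median 0.0749%). These ranges did not overlap. At Id2 the share was 0.604%, 1.89% and 8.08% in basal replicates 2, 4 and 6, and 0.0499%, 0.0912% and 0.444% in luminal replicates 2, 4 and 6. Replicate 6 was the highest of its group in both gates. The most abundant chain was Col4a2 in 10 of the 22 basal libraries and Col8a1 in 13 of the 24 luminal libraries.

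Whether collagen genes are transcribed in basal rather than luminal cells was asked over all 8 time points. Basal cells were higher for 30 of the 42 members and lower for 1, where a call in limma needed both a 2-fold change and a false discovery rate (FDR, by Benjamini and Hochberg) under 0.01. Over all genes, 13.6% were called higher and 7.35% lower. The median log2 fold change was 2.10 over the members and 0.02 over all genes. By class, 8 of 11 fibrillar chains, 6 of 6 basement membrane chains, 6 of 6 beaded filament chains, 5 of 8 FACIT and related chains, 2 of 2 multiplexins and 3 of 5 anchoring and transmembrane chains were higher, and 0 of the 4 other chains. In the same comparison 10 of 10 basal, 10 of 10 fibroblast, 11 of 12 endothelial and 8 of 9 pericyte markers were called higher. Of the luminal markers 10 of 10 were called lower. The part of other cell types in the collagen differences between the gates was not tested. P-values measure the spread between these libraries only. For each gene that spread is estimated over all groups together. P-values and standard errors therefore do not show how unlike the Id2 basal libraries are. Fold changes are on the log2(CPM + 1) scale, so that changes of weakly transcribed genes come out too small.

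**Figure D2:**
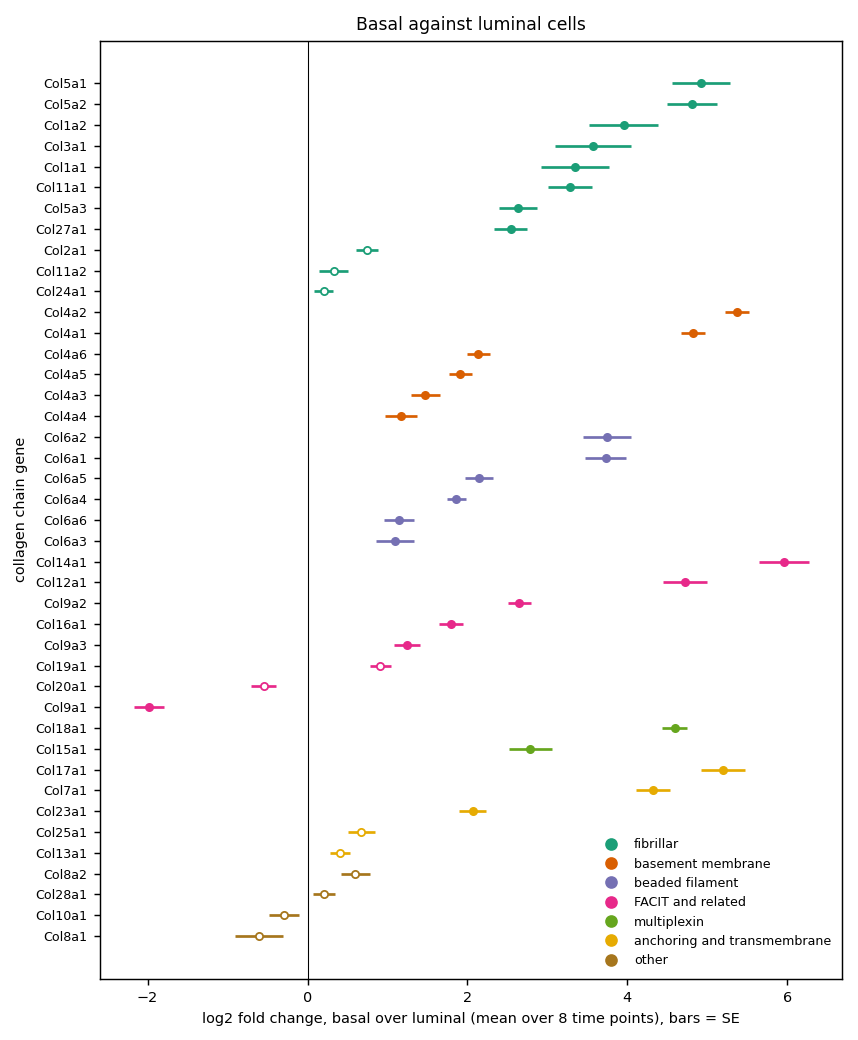
Log2 fold change of basal over luminal cells, averaged over 8 time points on the log2(CPM + 1) scale, for each of the 42 collagen chain genes, grouped and coloured by class; bars are standard errors, and filled points were called. Col14a1 (5.96) is the highest point, and Col9a1 (-1.99) is the called point on the luminal side.

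All chains of collagen IV were among the higher ones. Col4a1 and Col4a2, which assemble with each other into the common basement membrane network, were higher in basal cells by 4.82 ± 0.15 (SE) and 5.37 ± 0.15 on the log2 scale. Each basal library, Id2 included, was above each luminal library for both genes and for Col18a1 (log2 fold change 4.59 ± 0.15), a multiplexin of basement membranes. Of all genes, 1.23% separated the cell types in this way. Without the Id2 libraries 10 members did, against 3.3% of all genes, the others being Col4a5, Col4a6, Col5a1, Col5a2, Col7a1, Col12a1 and Col14a1. At W10, Col4a2 was at 1614, 1094 and 1297 CPM in basal replicates 3, 5 and 6 and at 25.7, 17.1 and 18.5 CPM in the luminal ones. Col4a5 and Col4a6, the chains of an epithelial network, differed less (1.91 ± 0.14 and 2.13 ± 0.14). Col4a3 and Col4a4, the chains of the kidney glomerulus network, were called higher (1.47 ± 0.18 and 1.17 ± 0.20) but stayed between 0 and 19.2 CPM in every library.

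Chains of epithelial attachment and of fibril surfaces were also basal. Col17a1, the transmembrane collagen of hemidesmosomes, was at 651, 684 and 862 CPM in basal and at 13.1, 9.39 and 5.35 CPM in luminal cells at W10 (mean log2 difference over time points 5.20 ± 0.28). Col7a1, which forms anchoring fibrils, was higher by 4.32 ± 0.21, and Col23a1, a transmembrane collagen, by 2.07 ± 0.17. Col14a1, a FACIT chain, had the largest difference (5.96 ± 0.31), with 567, 734 and 1092 CPM in basal and 6.95, 7.15 and 2.49 CPM in luminal cells at W10. Col5a1 (4.92 ± 0.36), Col5a2 (4.81 ± 0.31) and Col12a1 (4.72 ± 0.27) were higher as well. Col5a1 and Col5a2 are the chains of collagen V, which starts collagen I fibrils. In each of the 8 time points, 7 members were called higher in the libraries labelled basal (those of Id2, which went against their label, included), namely Col4a1, Col4a2, Col5a1, Col5a2, Col12a1, Col14a1 and Col18a1, and 0 were called lower in each. Of all genes, 2.39% were called higher and 0.908% lower at all of them.

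Taken by time point, most members were called at mid pregnancy. At P14.5, 33 members were higher in basal cells and 0 lower (9.54% and 3.39% of all genes). Fibroblast markers summed to 3771 and 1606 CPM in these basal libraries and to 17.4 to 49.5 CPM in the luminal ones. Pericyte markers summed to 1445 and 1297 CPM against 116 to 338 CPM, and endothelial markers to 1011 and 404 CPM against 43.0 to 404 CPM. Their part in the P14.5 count was not tested. At L3 there were 27 higher and 1 lower (15.9% and 9.87%). The other normal time points were alike in number, with 19 higher each. None was lower at M4 (8.2% of all genes higher and 4.24% lower), at P3.5 (7.27% and 4.64%) and at Iw4 (7.79% and 3.75%), while 1 was lower at L10 (13.8% and 10.9%). Whether the counts differ between time points was not tested.

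Col9a1 and, at W10, Col8a1 were higher in luminal cells. Col9a1, a chain of the FACIT collagen IX of cartilage, was the only member called lower in basal cells averaged over the time points (log2 fold change -1.99 ± 0.19). Its luminal level was highest at L3, with 251, 159 and 146 CPM in replicates 4, 5 and 6, when basal libraries had 7.94, 3.05 and 14.01 CPM. Its partners in collagen IX went the other way, since Col9a2 (2.65 ± 0.14) and Col9a3 (1.25 ± 0.16) were higher in basal cells. Col8a1, a chain of a short-chain network collagen, was the most abundant collagen per length in luminal cells at W10, at 47.4 ± 23.7 CPM per kb of exon (SD, n = 3). It was at 172, 540 and 402 CPM in luminal and at 11.5, 78.6 and 12.8 CPM in basal cells at W10 (log2 difference -3.81 ± 0.83, adjusted p = 0.000624 in limma). Averaged over time points it was not called (-0.61 ± 0.30). Col6a3, a chain of collagen VI, was called higher in basal cells averaged over time points (1.09 ± 0.24) and at P14.5, L3, L10 and Id2, and was not called at W10 (-1.73 ± 0.65, adjusted p = 0.0465 in limma). It was at 170, 50.4 and 59.99 CPM in luminal and at 26.2, 19.99 and 24.4 CPM in basal cells at W10, where luminal libraries held 5.04, 1.96 and 1.87 CPM of its partner Col6a1. Per kb of exon, the ratio of Col6a3 to Col6a1 had a median of 3.69 in the 21 luminal libraries outside Id2 and of 0.208 in the 19 basal ones, though the ranges overlapped (0.124 to 14.8 and 0.0721 to 0.949).

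Per kb of exon, the order in W10 basal cells was Col4a2 (202 ± 39.6 CPM per kb, SD, n = 3), Col4a1 (133 ± 45.4), Col17a1 (122 ± 18.9) and Col14a1 (114 ± 38.2), and neighbours in this order overlapped in their replicates. Col4a5 followed at 61.2 ± 9.01 CPM per kb, below all replicates of Col14a1. In W10 luminal cells Col9a1 came after Col8a1, at 13.0 ± 3.40 CPM per kb, and Col4a5 was at 9.63 ± 3.92.

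Of the 42 members, 15 had a mean under 5 CPM, which leaves few reads behind their values. They were Col2a1, Col11a2 and Col24a1 (fibrillar), Col4a3, Col4a4, Col6a4, Col6a5, Col6a6, Col19a1, Col20a1, Col13a1, Col25a1, Col8a2, Col10a1 and Col28a1. A level of 3 reads was worth between 0.170 and 1.05 CPM, and 19 members reached it in all 46 libraries. Of the 4 chains classed as other, Col8a2, Col10a1 and Col28a1 had condition means of at most 6.67, 2.43 and 1.84 CPM.

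Partner chains kept their ratio in different degrees. Per kb of exon, Col4a1 was between 0.566 and 1.02 times Col4a2 in the 22 basal libraries (median 0.760), and the Id2 replicates 2, 4 and 6 lay within that range at 0.759, 0.989 and 0.924. Col1a1 was between 1.22 and 3.27 times Col1a2 in basal libraries, with Id2 at 2.62, 3.16 and 2.94. The exon lengths join all annotated transcripts of a gene (6.56 kb for Col1a1 and 12.4 kb for Col1a2). The size of a ratio therefore depends on the annotation and does not give the proportion of transcripts. Col4a5 was between 1.67 and 3.50 times Col4a6 in the 19 other basal libraries and 10.8, 9.40 and 11.9 times in the Id2 basal libraries. The ratio was also high in the Id2 luminal libraries, at 7.50, 5.85 and 11.6 in replicates 2, 4 and 6. In the 21 other luminal libraries it was between 1.31 and 6.25 (median 2.73).

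Early pregnancy and the fully involuted gland were then compared with glands that had not been pregnant. At P3.5, 0 of the 42 members were called against the mean of W10 and M4 in either cell type. An unadjusted limma p under 0.05 was reached by 3 members in basal and 5 in luminal cells, and edgeR called 0. Of all genes, 3.04% were called higher and 1.04% lower in basal cells at P3.5, and 0.217% and 0.152% in luminal cells. Iw4 mice had gone through pregnancy and M4 mice were their controls of like age. Between them 0 members were called in either cell type, 0 by edgeR, and an unadjusted p under 0.05 was reached by 0 members in basal and 1 in luminal cells. The background was as low, since 0% of genes were called higher in either cell type and 0.00586% (basal) and 0% (luminal) lower. Col4a1 was at 323, 267 and 837 CPM in Iw4 basal replicates 3, 5 and 6 and at 504, 545 and 463 CPM in M4 basal replicates 1, 2 and 6.

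**Figure D3:**
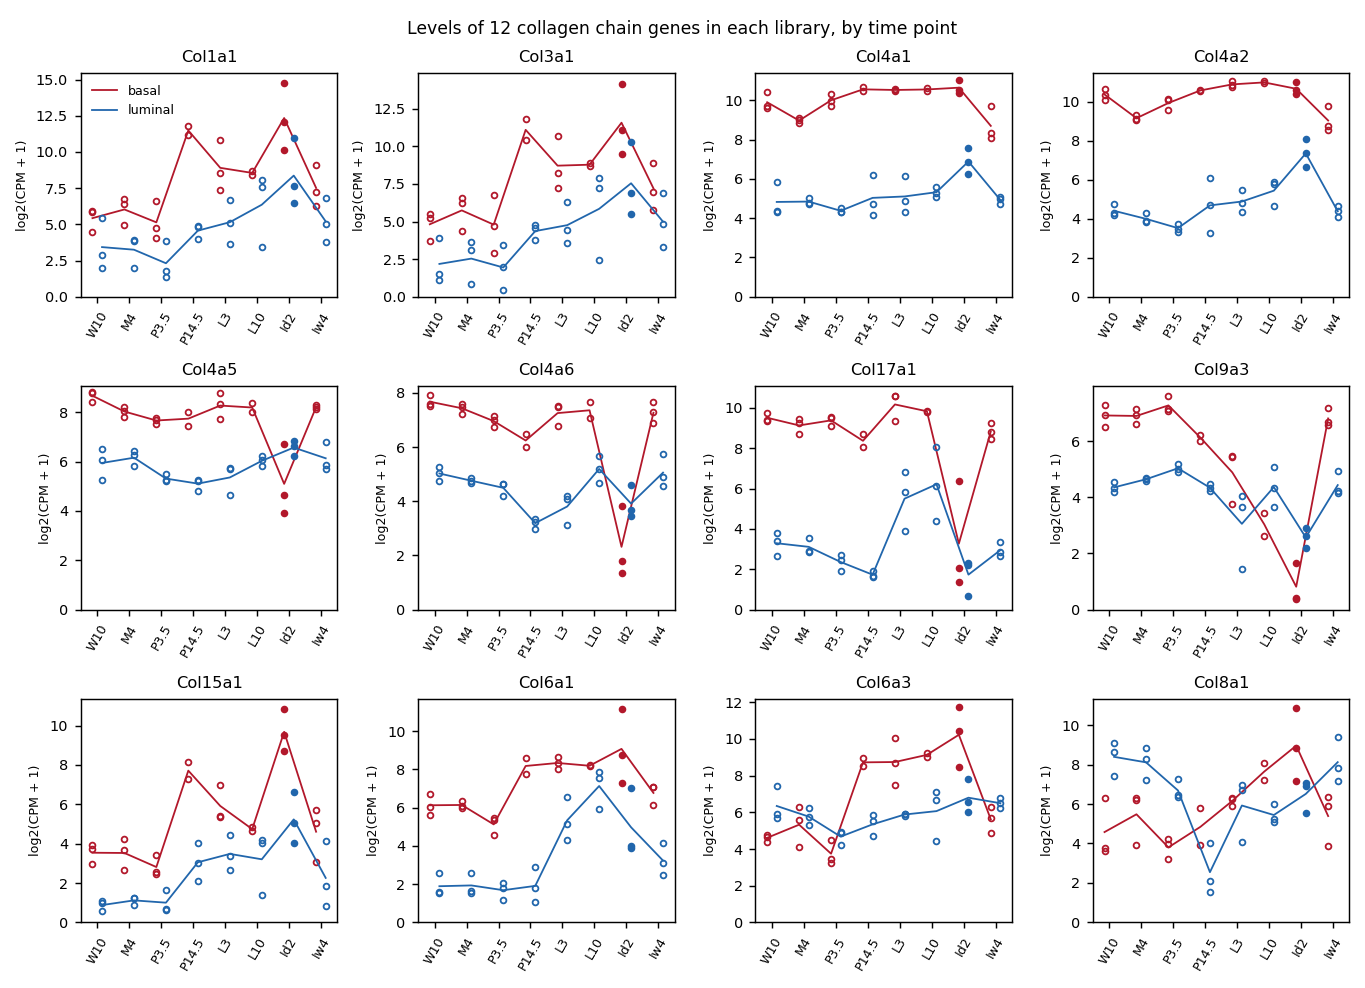
Level of 12 collagen chain genes in each library on a log2(CPM + 1) scale, by time point, for basal (red) and luminal (blue) libraries; each point is a library, filled at Id2, and lines join the means. Col4a1 and Col4a2 stay above the luminal libraries at each time point, whereas Col4a6 and Col17a1 drop and Col1a1 and Col15a1 are high at Id2 in basal libraries.

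At mid pregnancy, 8 members were called higher and 0 lower in basal cells against the nulliparous libraries, where 0.849% of all genes were higher and 0.234% lower. Of the members, 20 had an unadjusted limma p under 0.05, and edgeR called 7. Of the 8, 4 were fibrillar, 2 beaded filament, 1 a multiplexin and 1 a transmembrane chain. Col1a1 was at 3507 and 2329 CPM in the P14.5 basal libraries (replicates 3 and 5) and between 21.4 and 105 CPM in the 6 nulliparous ones, without overlap (log2 fold change 5.76 ± 1.17, adjusted p = 0.003 in limma). Col3a1 (5.82 ± 1.29), Col5a3 (4.47 ± 0.65), Col15a1 (4.18 ± 0.74), Col6a3 (3.75 ± 0.65) and Col6a5 (3.06 ± 0.48) rose as well. The Col3a1 call was lost in 5 of the 46 fits that each left out 1 library. Over all of them its log2 fold change was between 5.13 and 6.51. The calls of Col1a1, Col15a1 and Col6a3 were each lost in 2 of these fits and that of Col5a3 in 1. Col1a2, at 2499 and 1410 CPM, missed the threshold (5.04 ± 1.18, adjusted p = 0.0116). Col13a1 and Col24a1, which stayed at means of 3.03 and 2.12 CPM, were called by limma and not by edgeR. The fibroblast markers summed to 3771 and 1606 CPM in these basal libraries against 563 to 872 CPM in nulliparous ones, with Dcn and Fbn1 the most abundant, the pericyte markers to 1445 and 1297 CPM against 164 to 255 CPM and the endothelial markers to 1011 and 404 CPM against 45.4 to 273 CPM. Their part in these values was not tested. With only 2 libraries the count rests on both: without replicate 3 it was 0, without replicate 5 it was 2, and without M4 basal replicate 1 it was 5.

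In luminal cells at P14.5, 0 members were higher and 3 lower, where 1.96% of all genes were higher and 2.63% lower. edgeR called 1 member higher. Col8a1 fell from between 148 and 540 CPM in the 6 nulliparous luminal libraries to 15.2, 1.87 and 3.29 CPM (log2 fold change -5.70 ± 0.72), without overlap. Col11a1, a minor fibrillar chain, fell from between 15.4 and 80.5 CPM to 2.86, 1.28 and 4.56 CPM (-3.18 ± 0.65). Col4a6 fell from between 24.3 and 37.6 CPM to 6.95, 9.04 and 8.52 CPM (-1.70 ± 0.34). Basal marker sums in these luminal libraries were 396, 355 and 241 CPM against 131 to 251 CPM in the nulliparous ones. Fibroblast marker sums were lower, at 49.5, 21.9 and 17.4 CPM against 62.8 to 406 CPM without overlap, and 1 of 10 fibroblast markers, Dcn, was called lower. Endothelial sums were 404, 43.0 and 103 CPM against 29.0 to 161 CPM. Of the luminal markers 2 of 10 (Foxa1 and Prlr) were called lower, of the milk genes 4 of 6 higher, of the pericyte and basal markers 1 each (Rgs5 and Krt14) higher. The part of other cells in these values was not tested.

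**Figure D4:**
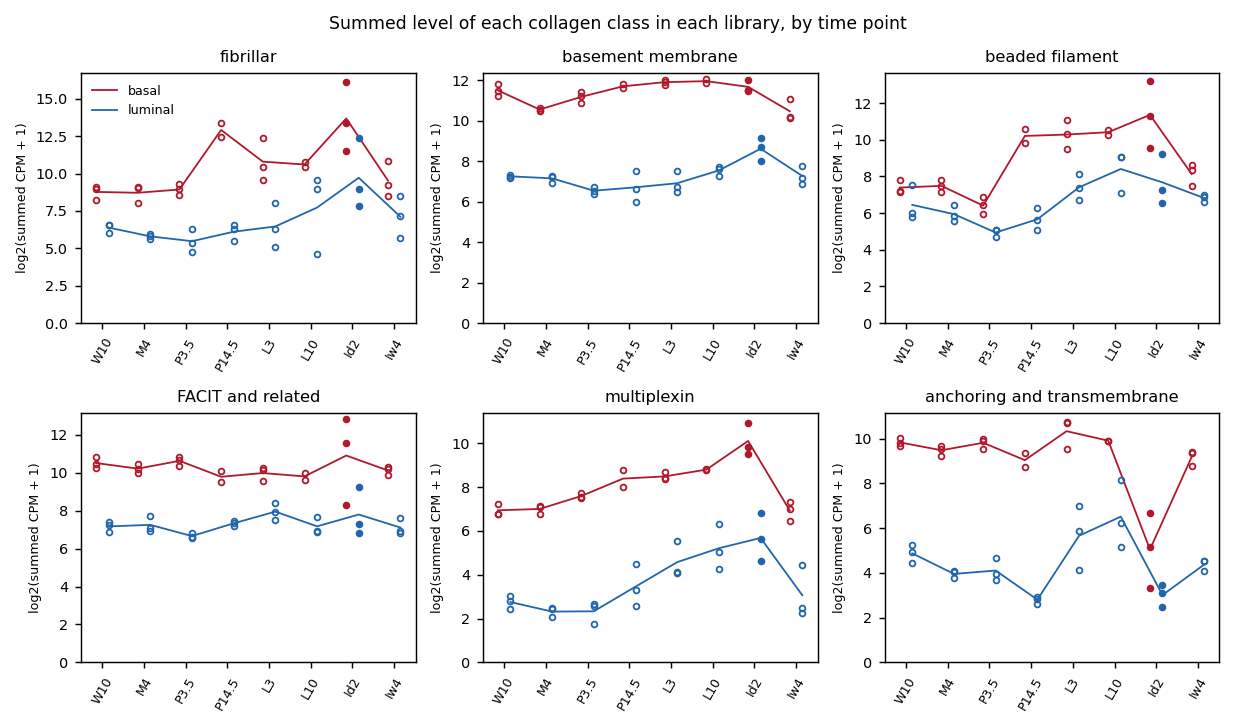
Summed level of 6 collagen classes in each library on a log2(CPM + 1) scale, by time point, for basal (red) and luminal (blue) libraries; each point is a library, filled at Id2, and lines join the means. The basement membrane class has a basal mean of 1496 CPM at Iw4 and 4006 CPM at L10, and the fibrillar class ranges from 2962 to 71518 CPM among the 3 Id2 basal libraries.

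In lactation (L3 and L10 together) against nulliparous glands, 13 members were higher and 6 lower in basal cells, with 9.58% and 6.97% of all genes called higher and lower. The median log2 fold change was 0.58 for the basement membrane class, 2.52 for the beaded filament class, -1.28 for the FACIT class and -0.05 for all genes. Col4a1 and Col4a2 rose by 1.11 ± 0.31 and 1.17 ± 0.31. Their 5 lactation libraries lay between 1412 and 1614 CPM for Col4a1, and the nulliparous ones between 463 and 1386 CPM, which did not overlap. The nulliparous ages differed, with Col4a2 at 1614, 1094 and 1297 CPM in W10 and at 623, 522 and 557 CPM in M4 basal libraries. In lactation Col4a2 was at 1688 to 2136 CPM, and the change against W10 alone was not tested. The Col4a1 call was lost in 8 of the 46 fits that each left out 1 library (W10 basal replicate 5 or 6, L3 basal replicate 5 or 6, L10 basal replicate 5 or 6, or M4 basal replicate 1 or 6), with log2 fold changes between 1.03 and 1.24. The Col4a2 call was lost without L10 basal replicate 6 (1.15). Of the 6 collagen VI chains 5 rose, with Col6a3 at 3.97 ± 0.49, Col6a5 at 3.29 ± 0.36, Col6a2 at 2.901 ± 0.61, Col6a1 at 2.13 ± 0.52 and Col6a6 at 1.61 ± 0.39. Among fibrillar chains, Col5a3 (4.17 ± 0.49), Col3a1 (3.47 ± 0.97), Col27a1 (3.14 ± 0.44) and Col1a1 (3.00 ± 0.87) rose, and Col18a1 rose by 1.60 ± 0.32. The Col3a1 call was lost in 5 of the fits without 1 library (W10 basal replicate 5, L3 basal replicate 6, L10 basal replicate 5 or 6, or M4 basal replicate 1). Over all these fits its log2 fold change was between 2.97 and 3.85. Col19a1 was called too, at no more than 7.36 CPM on average. Col1a1 was at 164, 373 and 1769 CPM at L3 (replicates 4, 5 and 6) and at 333 and 419 CPM at L10.

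The chains that fell in lactating basal cells were mostly FACIT and related ones, collagen IX among them. Col9a3 was at 44.0, 41.9 and 12.5 CPM at L3 and at 5.15 and 9.97 CPM at L10, against 89.7 to 158 CPM in nulliparous libraries (-2.95 ± 0.33). Col9a1 (-2.57 ± 0.38), Col16a1 (-1.99 ± 0.30) and Col9a2 (-1.86 ± 0.30) fell as well, and so did the weakly transcribed Col25a1 (-1.996 ± 0.34) and Col6a4 (-1.38 ± 0.24). In the same comparison all 9 pericyte markers and all 12 endothelial markers were called higher, 2 of 10 fibroblast markers, both adipocyte markers in the table, 1 of 7 immune markers, 3 of 10 basal markers and 4 of 6 milk genes, while 7 of 10 luminal markers were called lower (median log2 fold change -1.52). The pericyte sum was between 2034 and 17397 CPM in lactating basal libraries and at most 255 CPM in nulliparous ones, and its most abundant gene was Rgs5, at 933 to 9895 CPM. The endothelial sum was between 773 and 1745 CPM against at most 273 CPM. The fibroblast sum was between 878 and 2409 CPM against 563 to 872 CPM, without overlap, with Fbn1 the most abundant in each lactating library, and Pdgfra, a defining fibroblast marker, was at 0.254 to 75.8 CPM against 7.02 to 21.0 CPM. Their part in the collagen values was not tested. Without L10 basal replicate 6, 8 members were called higher in place of 13.

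In lactating luminal cells 5 members were higher and 4 lower, with 7.37% and 5.83% of all genes called. Col6a2 (4.48 ± 0.58) and Col6a1 (4.32 ± 0.49) rose the most. Col6a1 was at 34.5, 93.2 and 18.9 CPM at L3 and at 60.8, 188 and 235 CPM at L10, above the nulliparous luminal range of 1.87 to 5.04 CPM. Col17a1 (2.65 ± 0.54), Col15a1 (2.34 ± 0.53) and Col18a1 (1.99 ± 0.30) rose as well. Col17a1 was highest, at 268 CPM, in L10 luminal replicate 5, which also had the highest basal marker sum of any luminal library (2662 CPM) with Krt5 at 1143 CPM. Basal markers were called higher in 7 of 10 cases in this comparison, endothelial ones in 10 of 12, pericyte ones in 4 of 9, fibroblast ones in 3 of 10 (and lower in 1) and immune ones in 2 of 7, and their part was not tested. Col11a1 fell to between 0.145 and 1.21 CPM (-4.43 ± 0.53), Col8a1 fell by 2.57 ± 0.59 on the log2 scale, and Col9a2 (-2.17 ± 0.28) and Col25a1 (-1.69 ± 0.32) fell too. Without L10 luminal replicate 4, 11 members were called higher, and 8 without W10 luminal replicate 3.

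The change from nulliparous to lactating glands differed between the cell types for 10 members (the basal minus the luminal change was positive for 6 and negative for 4, against 5.40% and 4.91% of all genes). Of these, edgeR called 3 of the 6 and 3 of the 4. Col8a1 differed most, by 4.44 ± 0.86. Its luminal level fell (by 2.57 ± 0.59), and its basal change was not called (1.87 ± 0.62, adjusted p = 0.0177). Basal libraries were at 59.4, 75.4 and 77.9 CPM at L3, inside the nulliparous basal range of 11.5 to 78.6 CPM, and at 147 and 270 CPM at L10, when luminal ones were at 63.9, 33.1 and 36.3 CPM. Col6a3 differed by 4.05 ± 0.67. It was at 523 and 597 CPM in basal cells at L10 and at 20.6, 137 and 99.3 CPM in luminal cells, where its lactation change was -0.08 ± 0.46.

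At Id2 the members moved in opposite directions in the libraries labelled basal. Compared with the 7 other time points in basal cells, 13 were higher and 12 lower, where 9.20% of all genes were called higher and 7.91% lower. Fibrillar chains were mostly among the higher (6 of 11, with Col11a1 lower) and so were beaded filament chains (4 of 6, with Col6a4 lower). FACIT and related chains (5 of 8), anchoring and transmembrane chains (3 of 5) and basement membrane chains (2 of 6) were among the lower. The median log2 fold change was 2.63 for the fibrillar class, -2.29 for the FACIT class and -0.03 for all genes.

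Interstitial chains were high, and unequally so. Col1a1 was at 1148, 4359 and 27788 CPM in Id2 basal replicates 2, 4 and 6 (log2 fold change 4.76 ± 0.89, adjusted p = 6.22e-05 in limma). Its highest value elsewhere in basal libraries was 3507 CPM, so the groups overlapped through replicate 2. Col3a1, the partner of collagen I in loose stroma, was at 705, 2158 and 18487 CPM (4.26 ± 0.98). Col1a2 was at 831, 2611 and 17885 CPM (4.29 ± 0.90). Col5a3 was at 32.5, 216 and 382 CPM (4.15 ± 0.50) and Col6a3 at 357, 1385 and 3441 CPM (3.67 ± 0.49). The order of these libraries was the order of their fibroblast marker sums (1479, 4603 and 20923 CPM). Col5a1, Col5a2, Col6a1, Col6a2, Col6a6, Col8a1 and Col12a1 were called higher as well.

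Col15a1, a multiplexin of the basement membrane zone of vessels and muscle, had a different order. It was at 723, 417 and 1830 CPM in replicates 2, 4 and 6, above every other basal library (at most 280 CPM), and had the largest increase (log2 fold change 4.99 ± 0.57, adjusted p = 9.57e-09). It was the only member whose 3 Id2 basal libraries were all above all others, which 2.34% of genes were.

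Chains of epithelial attachment and of the epithelial collagen IV network were low in all 3 libraries. Col17a1 was at 1.56, 81.0 and 3.23 CPM in replicates 2, 4 and 6, where other basal libraries held 263 to 1531 CPM (-6.05 ± 0.58, adjusted p = 2.07e-10). Col7a1 was at 2.81, 6.98 and 21.0 CPM against 32.5 to 241 CPM (-3.72 ± 0.44). Col4a6 was at 1.56, 13.1 and 2.42 CPM against 63.2 to 242 CPM (-4.85 ± 0.30), and Col4a5 at 14.2, 104 and 24.4 CPM against 176 to 452 CPM (-3.02 ± 0.30). Replicate 4, which had the highest basal marker sum of the 3, was also the highest for Col17a1, Col4a5 and Col4a6. Col9a3 was at 0.312, 2.13 and 0.323 CPM (-5.18 ± 0.34), and Col9a2 had 0 reads in replicates 2 and 6 and was at 0.194 CPM in replicate 4, against at least 5.15 CPM in the other basal libraries for both genes. All 3 Id2 libraries were below all 19 others for 7 members (Col4a5, Col4a6, Col7a1, Col9a2, Col9a3, Col17a1 and Col23a1), as for 3.53% of all genes. Col16a1, Col11a1, Col14a1, Col9a1 and Col6a4 were called lower as well, but Col11a1 and Col14a1 rest on 2 of the libraries. Col14a1 was at 26.7, 64.2 and 576 CPM, and its replicate 6 lay inside the range of the others (306 to 1322 CPM). edgeR did not call these 2 genes.

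The chains of the common basement membrane network were not called in either direction. Col4a1 was at 1326, 1486 and 2112 CPM in the Id2 basal libraries (0.76 ± 0.32, adjusted p = 0.0635) and Col4a2 at 1548, 1333 and 2026 CPM (0.53 ± 0.31, adjusted p = 0.201). Other basal libraries held 267 to 1623 CPM of Col4a1 and 378 to 2136 CPM of Col4a2. Endothelial cells and pericytes also transcribe these chains, and their marker sums in these libraries are given above. Their part was not tested. Col18a1 was at 198, 320 and 138 CPM (0.32 ± 0.32, adjusted p = 0.474).

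**Figure D5:**
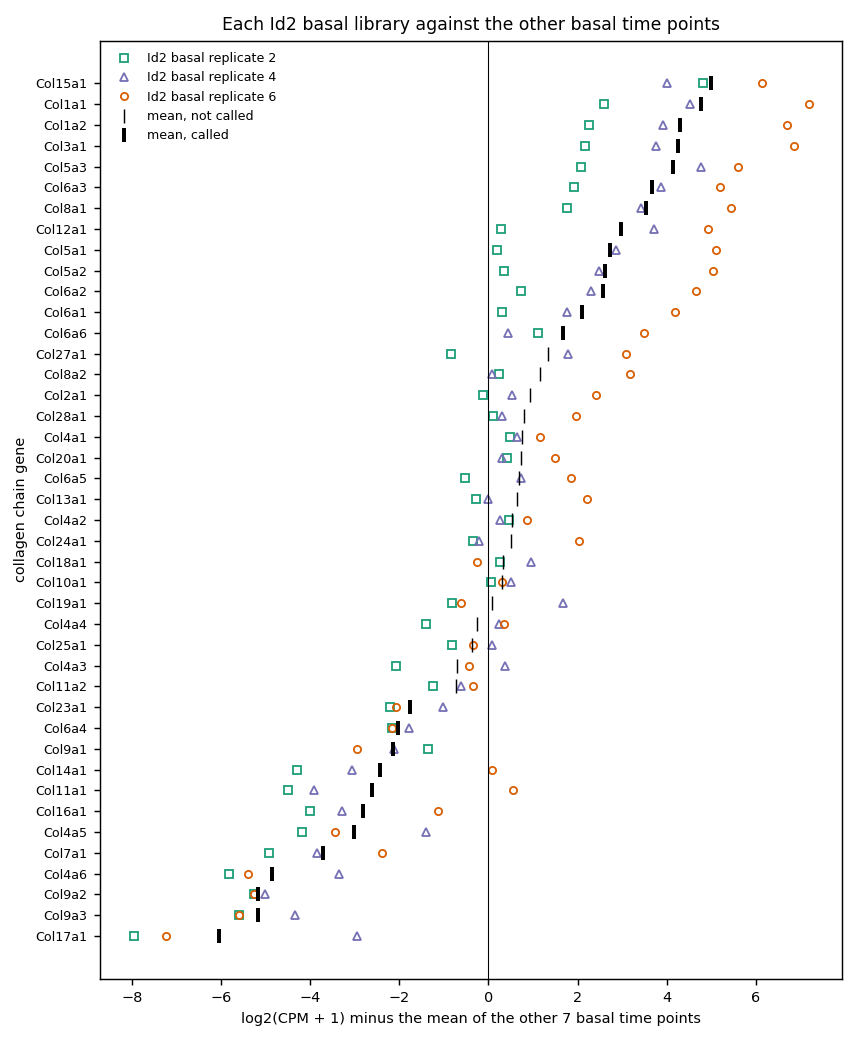
Log2(CPM + 1) of each Id2 basal library minus the mean over the 7 other time points in basal cells, for the 42 collagen chain genes sorted by the mean of the 3 libraries; the open symbols are replicates 2 (squares), 4 (triangles) and 6 (circles), and ticks mark the mean, thick where called. All 3 libraries are more than 1 above for 7 genes and more than 1 below for 10 (3.55% and 4.16% of all genes).

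The 3 libraries differed by more than 1 on this scale in the same direction for 17 members, 7 higher (Col1a1, Col1a2, Col3a1, Col5a3, Col6a3, Col8a1 and Col15a1) and 10 lower, against 3.55% and 4.16% of all genes. Without replicates 2 and 6, whose basal marker sums were the lowest of all basal libraries, 5 members were called higher and 9 lower. Of these, 4 and 9 were among the calls from all libraries. Col1a1, Col1a2, Col3a1, Col5a1, Col5a2, Col6a1, Col6a2, Col6a6 and Col8a1 were then no longer called higher. Their log2 fold changes in replicate 4 alone were 4.51 (Col1a1), 3.91 (Col1a2), 3.77 (Col3a1), 3.41 (Col8a1), 2.86 (Col5a1), 2.49 (Col5a2), 2.30 (Col6a2), 1.77 (Col6a1) and 0.44 (Col6a6), against 4.76, 4.29, 4.26, 3.54, 2.73, 2.63, 2.56, 2.09 and 1.68 with all 3 libraries, so that 8 of the 9 moved by less than their standard error while the call was lost. The spread of the single library left was assumed to be that of the other groups. Without replicate 6 alone, 5 were called higher, and against L10 alone, 3 were higher and 7 lower (backgrounds 5.63% and 7.68%). Against W10, which shares its amplification batch with Id2 but was sequenced on another lane, 14 were higher and 12 lower (8.78% and 8.58%).

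In luminal cells at Id2, 12 members were higher and 2 lower against the other time points, where 6.21% and 4.03% of all genes were called. Col1a2 (4.31 ± 0.89), Col1a1 (4.04 ± 0.88), Col5a1 (3.87 ± 0.75), Col3a1 (3.74 ± 0.98) and Col12a1 (3.64 ± 0.57) had the largest changes. Col1a1 was at 87.1, 200 and 2017 CPM in luminal replicates 2, 4 and 6, and the fibroblast sum was at 88.5, 168 and 1498 CPM, with at most 406 CPM in other luminal libraries. Of the fibroblast markers 3 of 10 were called higher, as were 5 of 7 immune, 3 of 9 pericyte and 1 of 12 endothelial ones. Without luminal replicate 6, 5 members were called higher. For the chains with the largest changes from all libraries, the changes were then 2.99 for Col1a2, 2.73 for Col1a1, 2.47 for Col5a1, 2.38 for Col3a1 and 2.45 for Col12a1. Over the fits without 1 library, the calls of Col1a2, Col1a1 and Col5a1 were each lost in 1 and that of Col3a1 in 2. That of Col12a1 was kept in each. Against W10 alone 12 were higher and 4 lower (6.23% and 4.14% of all genes), and against L10 alone 2 were higher and 2 lower (2.15% and 2.41%). Col4a1 (1.97 ± 0.32) and Col4a2 (2.88 ± 0.31) rose in luminal cells, and this was above every other luminal library in all 3 replicates. Col4a2 was at 98.0, 161 and 266 CPM, and at most at 66.7 CPM in other luminal libraries. Col12a1 and Col27a1 were likewise above all others, as were 2.77% of all genes. Col9a3 fell by 1.75 ± 0.33 on the log2 scale, and Col9a2 had 0 reads in each of the 3 libraries.

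The Id2 change differed between the cell types for 11 members. The basal minus the luminal change was positive for Col8a1 (3.49 ± 0.89) and Col6a3 (2.67 ± 0.69) and negative for 9, against 2.71% and 5.02% of all genes. Among the negative ones Col4a6 (-4.26 ± 0.42), Col17a1 (-4.19 ± 0.82), Col4a5 (-3.86 ± 0.43) and Col9a3 (-3.43 ± 0.48) differed most. Without basal replicates 2 and 6 these were -2.76, -1.10 (call lost), -2.26 and -2.60. The calls of Col7a1, Col6a4, Col8a1 and Col6a3 were lost too. For Col7a1, Col8a1 and Col6a3 the differences stayed about as large, at -3.05, 3.36 and 2.88 against -2.92, 3.49 and 2.67 with all libraries. Luminal Col4a6 was at 11.9, 23.2 and 9.97 CPM and luminal Col4a5 at 74.9, 114 and 97.6 CPM at Id2. Basal replicates 2 and 6 were below each of these for both chains, and replicate 4 was above luminal replicates 2 and 6 and below luminal replicate 4. The mean of the libraries labelled basal was lower, which was called for Col4a6 (-1.60 ± 0.39) and Col4a5 (-1.47 ± 0.40) in limma and not in edgeR. Without basal replicates 2 and 6 both calls were lost, and the differences from the luminal mean were -0.10 (Col4a6) and 0.14 (Col4a5, sign turned). Within each replicate number, both chains were lower in the library labelled basal than in the luminal one.

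In all, 18 members were higher and 4 lower at Id2 in the libraries labelled basal than in the luminal ones (12.2% and 9.39% of all genes). The higher count fell to 10 without luminal replicate 2 and to 11 without luminal replicate 4 or basal replicate 6, and rose to 26 without basal replicate 2. The lower count fell to 1 without basal replicate 2 and to 2 without luminal replicate 4 or 6 or basal replicate 6. Among the called members Col5a3 (4.56 ± 0.65), Col15a1 (4.45 ± 0.74), Col12a1 (4.13 ± 0.75), Col6a1 (4.10 ± 0.70) and Col6a2 (4.01 ± 0.82) had the largest increases. Col4a1 (3.76 ± 0.42) and Col4a2 (3.31 ± 0.41) were higher too. Col3a1, at 4.03 ± 1.29, was not called (adjusted p = 0.0138 in limma). Besides Col4a5 and Col4a6, Col9a1 (-2.902 ± 0.51) and Col9a3 (-1.76 ± 0.44) were lower. Without basal replicates 2 and 6 only replicate 4 was left. Among the higher ones the calls lost were those of Col15a1 (3.47), Col1a1, Col1a2, Col5a1, Col6a6, Col8a2, Col11a1 and Col14a1. Among the lower ones the calls of Col9a3 (-0.92), Col4a5 and Col4a6 were lost, and Col9a1 was at -2.87. For Col1a1, Col1a2, Col5a1 and Col14a1, replicate 4 was at 4359, 2611, 826 and 64.2 CPM. The Id2 luminal libraries were below it, at most at 2017, 1372, 344 and 47.6 CPM. Col15a1 and Col8a2 were above them too. Col6a6 and Col11a1 were not (3.88 and 5.43 CPM against at most 5.70 and 6.10 CPM).

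At W10, 19 members were higher and 2 lower in basal than luminal cells (9.10% and 5.12%). Of those already described, Col5a1 was higher there by 5.43 ± 0.99, Col4a1 by 5.08 ± 0.42, Col7a1 by 3.83 ± 0.58 and Col4a5 by 2.73 ± 0.40. The 2 lower ones were Col8a1 and Col20a1 (-1.60 ± 0.42, not called by edgeR), a FACIT-related chain at 10.1, 4.76 and 2.74 CPM in luminal and 2.29, 0.103 and 1.36 CPM in basal cells. The Col20a1 call was lost without W10 luminal replicate 3 or 5 or basal replicate 5 or 6.

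Enzymes that make and crosslink collagen and the receptors that bind it were described from a list of 39 genes, of which 37 were in the table. In basal against luminal cells 23 were higher and 0 lower (13.6% and 7.35% of all genes), with a median log2 fold change of 1.96. Those included the chaperone Serpinh1 (3.02 ± 0.15), the lysyl hydroxylase Plod2 (3.88 ± 0.25), the propeptide protease Adamts2 (4.46 ± 0.26), and the receptors Itga1 (4.16 ± 0.17) and Ddr2 (4.13 ± 0.22). In lactating basal cells 13 were higher and 0 lower (9.58% and 6.97% of all genes), with Loxl2 (4.82 ± 0.58), a crosslinking enzyme, changing most. At Id2, 18 were higher and 3 lower in the libraries labelled basal (9.20% and 7.91% of all genes). Lox, the lysyl oxidase that starts crosslinks, was at 310, 1812 and 5708 CPM in replicates 2, 4 and 6, above the other basal libraries (at most 393 CPM) in 2 of the 3 (5.44 ± 0.75). Loxl2 (4.38 ± 0.59), Loxl1 (4.35 ± 0.63), the prolyl hydroxylase P4ha3 (4.22 ± 0.59) and the collagen uptake receptor Mrc2 (4.20 ± 0.60) were higher as well. The receptors Itga2 (-2.20 ± 0.33) and Ddr1 (-1.86 ± 0.22), both of epithelia, and the glycosyltransferase Colgalt2 (-1.93 ± 0.43, not called by edgeR) fell. In luminal cells at Id2, 10 were higher and 1, Adamts3, was lower (6.21% and 4.03% of all genes), and in lactating luminal cells 9 were higher and 2 lower (7.37% and 5.83%). At P14.5, 2 were higher and 0 lower in basal cells (Loxl1 and Loxl2, 0.849% and 0.234% of all genes) and 1 was higher and 0 lower in luminal cells (1.96% and 2.63%).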

How the data were processed

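Amplified RNA was sequenced. The authors ran GSNAP against NCBI mouse build 37, used htseq-count to assign reads to Ensembl genes, and normalized with edgeR (tools per the submitters' processing notes). The deposited signal is the read count over the effective library size, given by the authors as CPM. Columns do not sum to a common total. They had removed weakly transcribed genes (1 CPM not reached in 3 samples) and invariable genes with extreme read numbers. Of 47 samples described, 46 have values (P14.5 basal replicate 2 was set aside by the authors), and 0 columns were left unused. Values were whole multiples of a read in 100% of cases (tolerance 0.1 reads), and libraries held 4398806 to 20023054 reads (median 8518616). Floors cover counting error only, as reads carry no molecular identifiers. Symbols for 16897 identifiers came from a later annotation, which also gave exon lengths and neighbours, and 181 had none. No member shared 25% or more of its exon bases with another protein-coding gene.

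Log2(CPM + 1) values were fitted with limma 3.58.1 in R 4.3.3 (16 condition means, mean-variance trend), with Benjamini-Hochberg adjustment over all 17078 genes and a call where both a 2-fold change and FDR under 0.01 were met. All groups share an estimate of the spread. The fit was tested on simulated data for basal Id2 against the other time points. Of 100 simulated 4-fold increases 72% were called, and of 100 simulated 4-fold decreases 63%, with 4 false calls among 16878 unchanged genes. The same dispersion was set for every gene and library, so libraries as unlike as those of Id2 were not simulated. The labels name no sort, and the paper states that each time point and replicate was sorted independently. Luminal and basal libraries with the same time point and replicate number were therefore taken as the same sort. They deviated together in 21 of 22 pairs (median correlation across genes 0.25), so the sort was also used as a block (consensus correlation 0.179). The alternatives were a pseudocount of 0.1, median-ratio scaling, a mean of at least 5 CPM, edgeR 4.0.16 (quasi-likelihood test on recovered reads), the block, FDR 0.05, other reference time points, a batch term for Iw4 against M4, and each library left out. Leaving out 2 Id2 basal libraries together was chosen after seeing the data. Members and lists were chosen with earlier results of these data known. Named were the 4 most abundant members of each class, all Col4 chains, Col17a1, Col7a1 and the 5 largest called changes per comparison and direction, and other members are named where a count needed them.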

Additional observations from a re-analysis of the deposited data

Results flagged for a closer look

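The change from the other time points to Id2 differed between the cell types for 11 collagen chain genes, by a test of the difference itself (an interaction in limma, called at a fold of 2 and FDR under 0.01). Values are the basal minus the luminal change on the log2(CPM + 1) scale. They were positive for Col8a1 (3.49) and Col6a3 (2.67). They were negative for Col4a6 (-4.26), Col17a1 (-4.19), Col4a5 (-3.86), Col9a3 (-3.43), Col9a2 (-2.93), Col7a1 (-2.92), Col16a1 (-2.78), Col4a2 (-2.35) and Col6a4 (-1.99). With basal replicates 2 and 6 left out, 6 of these 9 were called and neither Col8a1 nor Col6a3 was, at differences of 3.36 and 2.88. Col17a1 was at -1.10 (call lost), Col4a6 at -2.76 and Col4a5 at -2.26, and Col7a1 (-3.05) and Col6a4 lost their calls too.

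The change from nulliparous to lactating glands differed for 10 genes by the same test. The basal minus the luminal change was positive for Col8a1 (4.44), Col6a3 (4.05), Col5a3 (3.89), Col6a5 (3.23), Col11a1 (3.11) and Col19a1 (2.24), and negative for Col9a1 (-2.88), Col16a1 (-2.18), Col9a3 (-2.16) and Col6a4 (-1.39). For Col11a1 the luminal level fell while the basal one was not called. For Col5a3 and Col19a1 the luminal libraries held few reads at either stage. In these comparisons the marker sums of other cell types moved in the libraries too, and their part was not tested.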

How the results depend on the processing

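Of 30 counts of called genes, 13 stayed within 1.5 times under every alternative run, and of 100 named changes 68 kept their direction and call. The cause of the following shifts was not tested. At Id2, basal cells stands for the libraries labelled basal, which went against their label. With a pseudocount of 0.1, 2 members (1 in the values above) were lower in basal cells over all time points, 1 (of 2) at W10, 4 (of 2) were lower in luminal cells at Id2 and 4 (of 8) higher in basal cells at P14.5. With a mean of at least 5 CPM, 5 were higher in basal cells at P14.5 and 1 lower at W10, where fewer genes were tested. edgeR called 2 lower in basal than luminal cells at Id2, 1 at W10, 10 higher in lactating luminal cells, 1 higher in luminal cells at P14.5, 5 (of 9) with a negative difference (basal minus luminal) in the Id2 change and 3 (of 6) with a positive one in the lactation change. At FDR under 0.05, 9 were higher in lactating luminal cells, 5 lower in luminal cells at Id2, 1 lower in basal cells at P14.5, and 1 higher and 5 lower in luminal cells at P14.5. Leaving out the Id2 time point gave 2 lower in basal cells over all time points. Against L10 alone, 3 were higher and 7 lower at Id2 in basal cells and 2 were higher in luminal cells, and against W10 alone 4 were lower in luminal cells.

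With Id2 basal replicates 2 and 6 both left out, 5 members were higher at Id2 in basal cells, 1 was lower in basal than luminal cells at Id2, 1 had a positive difference in the Id2 change, 4 were lower in luminal cells at Id2 and 1 was lower in basal cells at P14.5. The difference of Col4a5 between basal and luminal cells at Id2 reversed, from -1.47 to 0.14, though basal replicate 4 was below luminal replicate 4 (104 against 114 CPM).

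Leaving out 1 library at a time, the counts ranged from 10 to 26 higher and 1 to 4 lower in basal than luminal cells at Id2, 1 to 2 lower at W10, 8 to 15 higher in lactating basal cells, 5 to 11 higher in lactating luminal cells, 5 to 18 higher at Id2 in basal cells, 5 to 13 higher and 2 to 4 lower at Id2 in luminal cells, 0 to 10 higher and 0 to 1 lower at P14.5 in basal cells, and 0 to 3 with a positive difference in the Id2 change. The last was 0 without basal replicate 4 or 6 or luminal replicate 2 or 4.

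On recovered reads edgeR called 34 members higher and 1 lower in basal cells over all time points, and 18 higher and 10 lower at Id2 in the libraries labelled basal. With the sort as a replicate block, every member call was kept in the comparisons run with it, and the largest gain was from 18 to 23 members higher in basal than luminal cells at Id2. Basal against luminal cells at single time points other than W10 and Id2, and Id2 against W10 or L10 alone, were not run with the block. With a batch term, 0 members differed between Iw4 and M4. Basal P14.5 and L10 had 2 libraries each, and 3 reads were worth up to 1.05 CPM, which limits the changes of the 15 weakly transcribed members.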
